A study of Homo sapiens with 6 samples.

Results

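The genes described here encode growth factors of the PDGF, FGF and VEGF families and one of their receptors. They are the platelet-derived growth factor genes PDGFA, PDGFB, PDGFC and PDGFD, the fibroblast growth factor genes FGF1, FGF2 and FGF5, the vascular endothelial growth factor genes VEGFB and VEGFC, and the receptor gene FGFR1. They were chosen by symbol, by a rule that uses no measured value but was written with earlier results of these data known, and are 10 of the 38100 genes of the count table. Of the 10, 8 had enough counts for a test, beside 17720 genes tested in all, and PDGFD and FGF1 did not. RNA was sequenced from HK2 cells, an immortalised human line of kidney proximal tubular epithelium, after infection with an empty control adenovirus (AdCtrl) or an adenovirus that carries SIRT4 (AdSIRT4), a sirtuin of mitochondria. Both groups were labelled wild type, were infected with an adenovirus and were stimulated with TGF-β1, the cytokine that drives fibrotic programmes in tubular cells, so the comparison is between vectors under TGF-β1 and no uninfected or unstimulated cells entered it. Each group held 3 samples. The study asked what SIRT4 overexpression does to gene expression under TGF-β1, and the growth factor genes were read in that comparison.

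PDGFs are dimers that signal through the receptor tyrosine kinases PDGFRα and PDGFRβ and are mitogens for fibroblasts and pericytes. FGFs signal through FGFR1 to FGFR4 with heparan sulphate as a cofactor, VEGF-B binds FLT1 and VEGF-C binds FLT4 and KDR. In the kidney such factors, released by tubular epithelium, act on neighbouring interstitial and vascular cells. Activated receptors feed into the RAS-MAPK and PI3K pathways, and these induce early response genes and their own feedback inhibitors.

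No growth factor gene passed the test across all genes. Of the 8 tested, 0 had an adjusted p under 0.05 by edgeR's quasi-likelihood test with Benjamini-Hochberg adjustment, against 0.0113% of all tested genes (2 genes, one of them SIRT4). PDGFB was 1.28-fold and PDGFC 1.18-fold higher in AdSIRT4 than in AdCtrl, each without overlap between the groups. FGFR1 lay at 0.862 of its AdCtrl level, also without overlap. Its log2 difference was -0.21 with all samples and -0.096 without AdSIRT4 replicate 1. Over all tested genes, the groups did not overlap in 9.66% with AdSIRT4 higher and in 9.77% with AdSIRT4 lower. PDGFA, FGF2, FGF5, VEGFB and VEGFC overlapped between the groups, and PDGFD and FGF1 were at or near 0 in all samples. In bulk RNA, fewer cells of a type and less RNA per cell cannot be told apart.

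The total counts were 42102861 to 53677241 in AdCtrl and 41537353 to 85684748 in AdSIRT4. SIRT4 itself had 31, 47 and 57 counts in AdCtrl and 1996, 7995 and 6827 counts in AdSIRT4, a log2 difference of 6.36 (adjusted p = 0.00801, edgeR), in the direction of the labels. The cell line field gives most samples another number after HK, whereas each title names HK2. Nothing in the labels says that samples came from separate cultures, and the study describes its replicates in vitro as technical, so the p-values measure only the spread between these samples. Of 8 markers of tubular epithelium, 6 had a mean of at least 1 FPKM (fragments scaled for gene length and library depth), among them EPCAM, KRT8, KRT18 and PAX8, while CDH1 was near 0. Of 8 proximal tubule markers only GGT1 did, and LRP2, AQP1 and ANPEP were near 0. The FPKM of the tubular epithelium markers summed to 765 to 800 in AdCtrl and 730 to 976 in AdSIRT4, and those of the proximal tubule markers to 79.5 to 84.6 and 66.4 to 75.6. None of 8 endothelial markers reached 1 FPKM, and their sums were 0.353 to 0.399 and 0.330 to 0.398. Of 7 fibroblast and pericyte markers 3 did (sums 122.0 to 129.1 and 108.7 to 122.6), with COL3A1 at 0, and of 5 leukocyte markers 2 did (sums 18.6 to 20.7 and 20.1 to 23.8), with CD3E and MS4A1 at 0. The proximal tubule sums did not overlap between the groups, and the fibroblast and pericyte sums did. GGT1 made up most of the former (means of 80.6 FPKM in AdCtrl and 71.0 in AdSIRT4). RGS5 made up most of the latter (117.9 and 109.0). KRT8 (411.0 and 426.1) and KRT18 (212.0 and 229.6) made up most of the tubular epithelium sums. CDH16 was the only marker of these lists with an unadjusted p under 0.05, and was lower in AdSIRT4 without overlap. Its log2 difference was -0.34 (adjusted p = 0.593, edgeR), and -0.38 (adjusted p = 0.046) without AdSIRT4 replicate 1, where 3.34% of genes were called lower. The part of the marker sums in the results was not tested.

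In how its counts depended on gene length, AdSIRT4 replicate 1 was compared only with the other AdSIRT4 replicates, and it differed from them. Against the mean of the other AdSIRT4 replicates, its log2 CPM (counts scaled to library size by TMM) was 0.67 higher at the median among the shortest tested genes, taken in 10 bins of equal size (up to 1.32 kb) and lay at -0.75 in the bin of the longest (from 8.82 kb). VEGFB, with a length of 2.04 kb implied by the deposited values, deviated by 0.65, VEGFC (2.58 kb) by 0.43 and PDGFA (3.07 kb) by 0.30. The medians of their length bins lay at 0.31, 0.19 and 0.061. At the other end FGFR1 (6.02 kb) deviated by -0.41 and FGF2 (7.67 kb) by -0.22, beside bin medians of -0.30 and -0.43. PDGFC (5.22 kb) deviated by 0.19, while the median of genes of its length lay at -0.16. PDGFB (4.24 kb) and FGF5 (6.12 kb) deviated by less than 0.1, at -0.083 and 0.033, beside bin medians of -0.039 and -0.30. The log2 difference of each tested growth factor gene is therefore also given without this library.

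**Figure D1:**
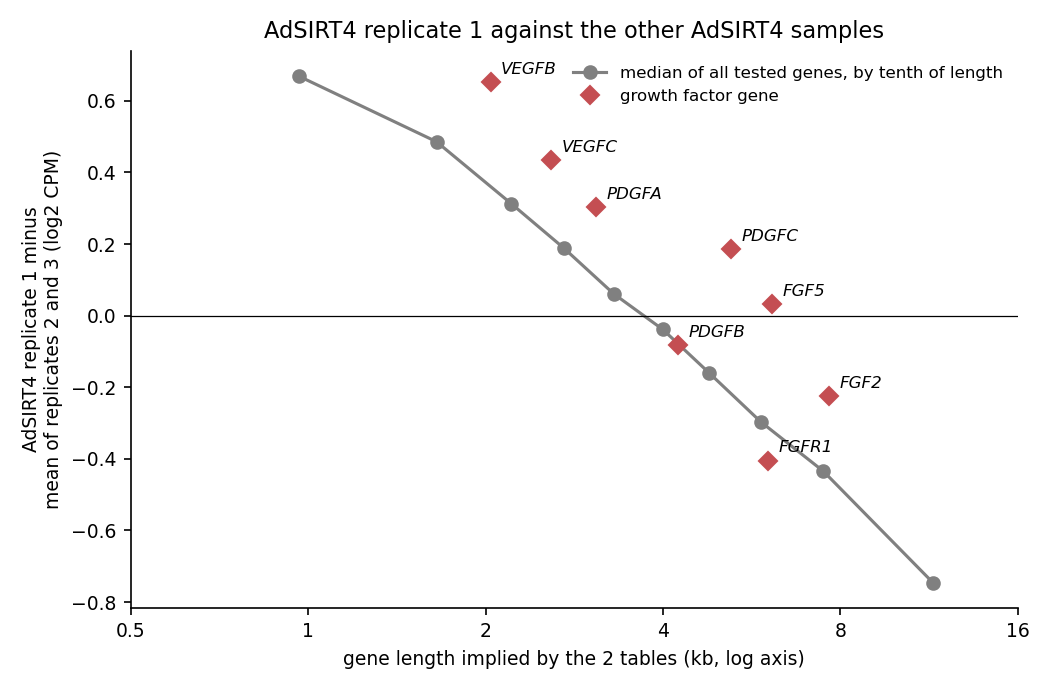
Deviation of AdSIRT4 replicate 1 from the mean of the other AdSIRT4 replicates (log2 CPM, y axis) against gene length (kb, log axis). The line joins the medians of 10 length bins of all tested genes, which run from 0.67 in the shortest to -0.75 in the longest, and the labelled points are the growth factor genes, from 0.65 for VEGFB to -0.41 for FGFR1.

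The PDGF genes were set in 2 pairs beforehand, by the type of chain, and the stretch each pair shares best is shown. The search for such stretches was run within these pairs alone, so the pairing is not a result. The stretches are 90 bases of coding sequence from GENCODE release 29 on GRCh38, printed 5′ to 3′ on the coding strand, and the capitals mark the bases at which the members of a pair differ. PDGFA and PDGFB encode the classical chains, which are processed inside the cell before secretion, and they were identical at 71 of 90 bases (78.9%). PDGFC and PDGFD encode latent chains that carry a CUB domain and are activated outside the cell by proteases, and they were identical at 64 of 90 bases (71.1%).
PDGFA, chr7:510842-510931, minus strand: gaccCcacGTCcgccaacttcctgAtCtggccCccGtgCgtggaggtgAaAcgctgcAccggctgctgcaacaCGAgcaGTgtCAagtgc
PDGFB, chr22:39231655-39231744, minus strand: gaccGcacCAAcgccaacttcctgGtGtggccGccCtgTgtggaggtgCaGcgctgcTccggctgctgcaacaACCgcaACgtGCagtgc
PDGFC, 2 exons at chr4:156850221-156850291 and chr4:156810999-156811017, minus strand: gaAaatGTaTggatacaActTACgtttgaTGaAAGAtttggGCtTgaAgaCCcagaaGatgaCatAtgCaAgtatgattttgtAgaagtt
PDGFD, 2 exons at chr11:104000051-104000121 and chr11:103996227-103996245, minus strand: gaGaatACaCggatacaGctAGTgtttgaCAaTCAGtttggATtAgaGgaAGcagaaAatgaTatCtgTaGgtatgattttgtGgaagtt
Across their whole transcripts, the longest run of identical bases was 16 for PDGFA and PDGFB and 13 for PDGFC and PDGFD. It was 17 for PDGFB with PDGFC and for PDGFA with PDGFC, and PDGFD was compared with PDGFC alone.

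The growth factor genes differed widely in level. In AdCtrl, compared per length, FGFR1 had 23.9 ± 1.34 FPKM (SD, n = 3) and VEGFB 22.5 ± 0.542, with overlapping samples. PDGFC followed at 17.5 ± 1.30 FPKM and was the most abundant PDGF gene. FGF2 (11.4 ± 0.862 FPKM) and VEGFC (10.3 ± 1.04) overlapped each other, and PDGFB (7.13 ± 0.649) and PDGFA (5.21 ± 0.389) each stood clear of their neighbours. FGF5 reached only 0.377 ± 0.0386 FPKM. In AdSIRT4, VEGFB at 24.2 ± 5.36, FGFR1 at 20.3 ± 4.03 and PDGFC at 20.1 ± 0.760 FPKM overlapped their neighbours in the order, as did FGF2 at 11.4 ± 1.70, VEGFC at 9.71 ± 1.24 and PDGFB at 8.93 ± 0.858. PDGFA (5.02 ± 0.516 FPKM) and FGF5 (0.346 ± 0.0290) again stood apart.

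**Figure D2:**
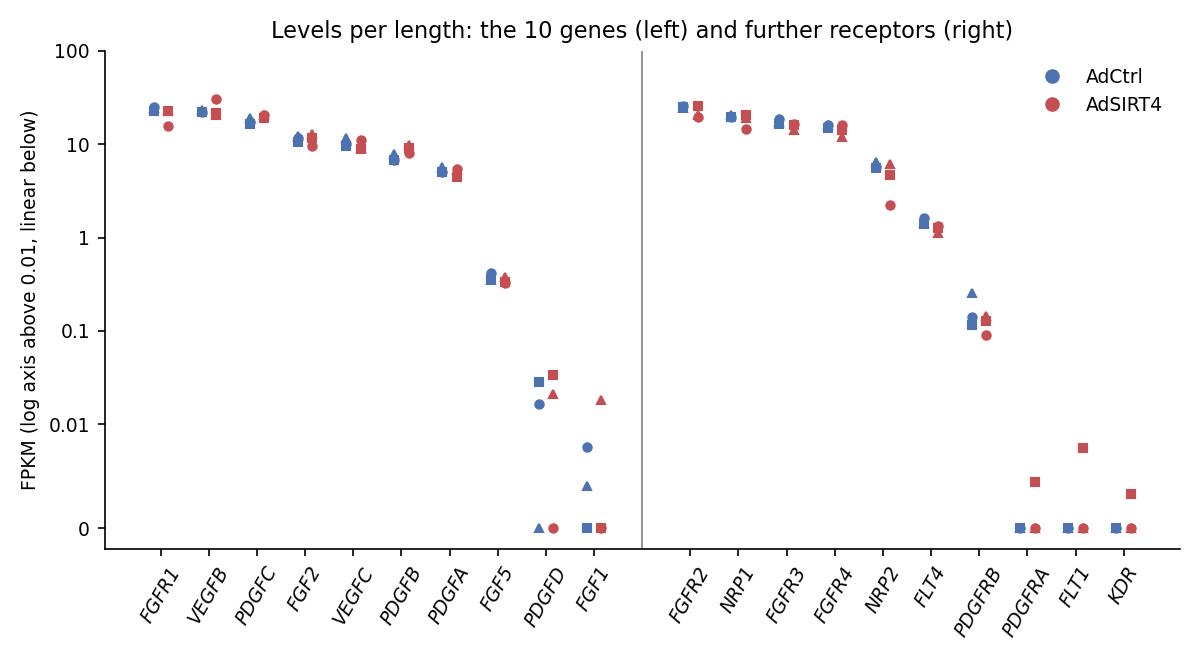
Level of each growth factor gene (left) and of further receptors (right) in FPKM, on an axis that is logarithmic above 0.01 and linear below, with one point per sample, coloured by group and shaped by replicate. FGFR1, VEGFB and PDGFC lie highest, FGF5 lies below 1 FPKM and PDGFD, FGF1, PDGFRA, FLT1 and KDR lie at or near 0.

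PDGFB (chr22:39223359-39244751, minus strand) encodes the chain that binds both PDGF receptors, and of the growth factor genes it had the smallest p. It had 1563, 1232 and 1632 counts in AdCtrl and 1432, 3276 and 3241 in AdSIRT4. Scaled to library size (CPM, TMM-normalised) these were 28.9, 29.0 and 31.8 in AdCtrl and 36.7, 38.0 and 39.9 in AdSIRT4. The lowest AdSIRT4 sample, replicate 1, was above the highest AdCtrl sample. The means were 29.9 ± 1.62 and 38.2 ± 1.58 CPM (SD, n = 3), and the log2 difference was 0.35 (SE 0.0928). The unadjusted p was 0.00637, rank 227 of 17720 genes, and the adjusted p was 0.494 by edgeR. A two-sided exact permutation test gave p = 0.1, the smallest that 3 samples against 3 allow. DESeq2 gave an adjusted p of 0.0312 for the same difference, where it called 0.788% of 15995 genes higher in AdSIRT4. Without AdSIRT4 replicate 1 the log2 difference was 0.38 and the adjusted p 0.0110 by edgeR, in a fit that called 3.37% of genes higher and 3.34% lower. Over all alternatives the log2 difference lay between 0.29 and 0.40 and the adjusted p between 0.0110 and 0.971.

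PDGFC (chr4:156760454-156971394, minus strand) encodes a latent chain that binds chiefly PDGFRα. Its level was 90.5, 87.0 and 93.4 CPM in AdCtrl and 115.4, 99.7 and 103.3 CPM in AdSIRT4. The groups did not overlap, and AdSIRT4 replicate 1 was the highest sample. Its log2 difference of 0.23 (SE 0.0961) had an unadjusted p of 0.0454, and edgeR's adjusted p was 0.621. When that sample was left out it was 0.16, with an adjusted p of 0.0850. With the replicate number as a block, the unadjusted p of PDGFC was 0.0768 and that of PDGFB 0.0141, so that PDGFB alone was then under 0.05. In the exact permutation test PDGFC gave p = 0.1.

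PDGFA (chr7:497258-520296, minus strand) encodes the chain whose homodimer binds PDGFRα alone. It was measured at 15.2, 15.9 and 16.4 CPM in AdCtrl and at 17.9, 13.5 and 15.6 CPM in AdSIRT4. AdSIRT4 replicate 1 was the highest and replicate 2 the lowest of the 6 samples. Their log2 difference was -0.017 (SE 0.125), with an adjusted p of 0.965 by edgeR, and -0.13 without AdSIRT4 replicate 1.

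Of the PDGF genes, PDGFD (chr11:103907186-104164379, minus strand), a ligand of PDGFRβ, was nearly absent. It had 4, 6 and 0 counts in AdCtrl and 0, 13 and 9 in AdSIRT4. A count of 0 allows up to 3 counts, or 0.0770 CPM in AdSIRT4 replicate 1 and 0.0584 CPM in AdCtrl replicate 3, for counting error only. A difference was not detectable at this depth.

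The ratio of PDGFB to PDGFA in FPKM, chosen after the values were seen, was 1.37, 1.34 and 1.39 in AdCtrl and 1.50, 2.04 and 1.85 in AdSIRT4. The ratio of PDGFC to PDGFA averaged 3.36 ± 0.119 in AdCtrl and 4.02 ± 0.278 in AdSIRT4 (SD, n = 3). Both ratios were higher in every AdSIRT4 sample than in any AdCtrl sample, and each of these 2 comparisons gave p = 0.1 in the two-sided exact permutation test. The ratio of PDGFB to PDGFC overlapped between the groups, with p = 0.4 in the exact permutation test. After Benjamini-Hochberg adjustment over the 3 ratios none could pass 0.05, since no raw p can fall below 0.1.

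**Figure D3:**
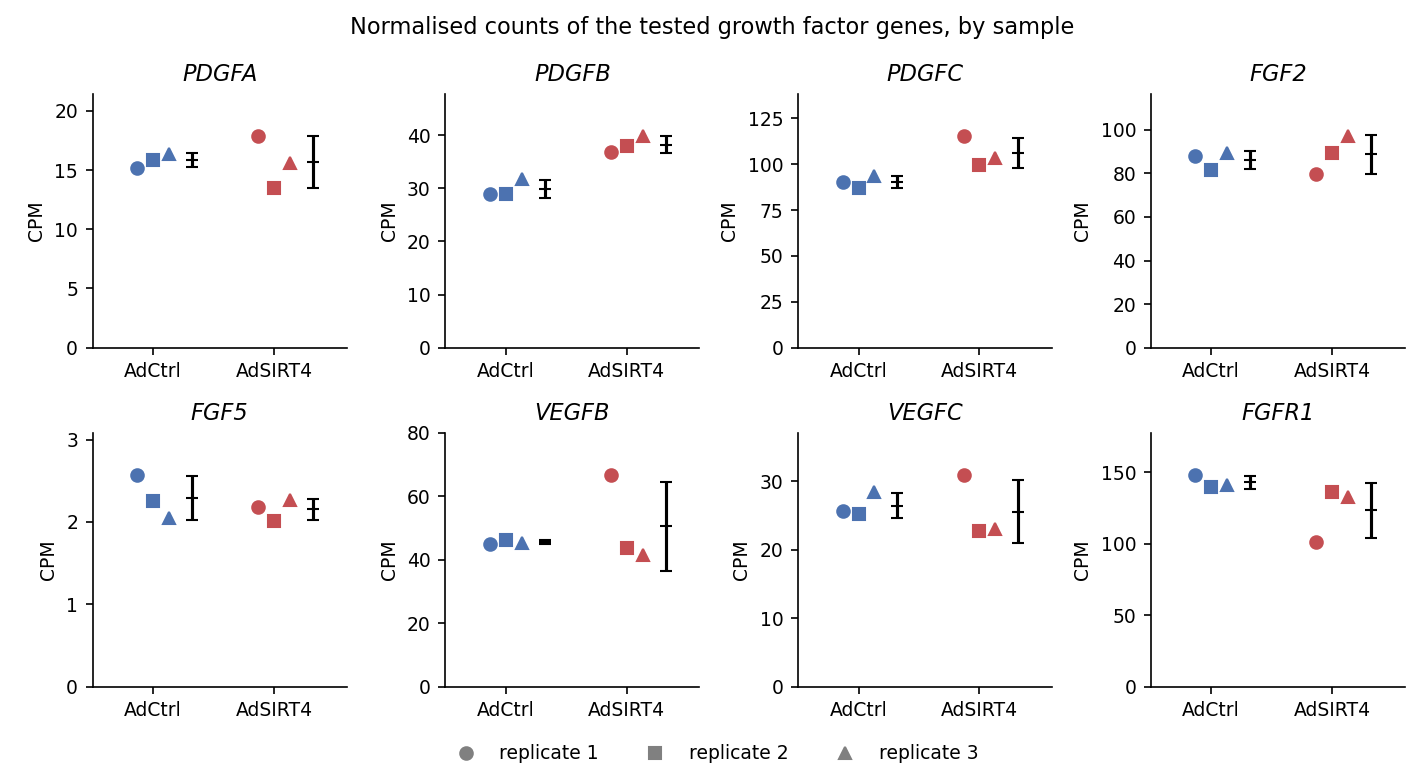
CPM (TMM-normalised) of the 8 tested growth factor genes in each of the 3 AdCtrl and 3 AdSIRT4 samples, one panel per gene with the mean and SD beside the points. The groups are separate for PDGFB (means 29.9 and 38.2), PDGFC (90.3 and 106.1) and FGFR1 (143.0 and 123.3), and in VEGFB AdSIRT4 replicate 1 lies above all other samples.

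FGF2 (chr4:122826708-122898236, plus strand), a mitogen of fibroblasts and endothelium that leaves cells without a signal peptide, was the main FGF gene measured here. It had 88.0, 81.4 and 89.3 CPM in AdCtrl and 79.7, 89.1 and 97.2 CPM in AdSIRT4. The groups overlapped fully, with AdSIRT4 samples at both ends. FGF2 differed by 0.041 on the log2 scale (SE 0.105) with an adjusted p of 0.902 by edgeR, and 0.11 without AdSIRT4 replicate 1. FGF2 shares 804 exon bases, 11.9% of its exon length, with NUDT6 on the opposite strand, and the protocol names no step that marks the strand. NUDT6 had 3.69 ± 0.619 CPM in AdCtrl and 3.19 ± 0.619 CPM in AdSIRT4 (SD, n = 3), far below FGF2.

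FGF5 (chr4:80266599-80336680, plus strand), known as a regulator of the hair cycle, was low, at 2.57, 2.26 and 2.04 CPM in AdCtrl and 2.18, 2.01 and 2.26 CPM in AdSIRT4. These levels stood for 85 to 184 counts per sample and overlapped between the groups. FGF5 had a log2 difference of -0.093 (SE 0.166) with an adjusted p of 0.864 by edgeR, and of -0.11 without AdSIRT4 replicate 1. FGF1 (chr5:142592178-142698070, minus strand), which binds all FGF receptors, had 2, 0 and 1 counts in AdCtrl and 0, 0 and 7 in AdSIRT4. It was at or near the limit of 3 counts in all but 1 sample, and no fold is given.

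VEGFB (chr11:64234538-64238793, plus strand), a ligand of FLT1, varied least among the tested growth factor genes in AdCtrl and most in AdSIRT4, relative to its mean. It had 45.0, 46.2 and 45.2 CPM in AdCtrl and 66.7, 43.6 and 41.4 CPM in AdSIRT4. AdSIRT4 replicate 1 lay above, and the other AdSIRT4 samples below, the whole AdCtrl range. The log2 difference was 0.15 (SE 0.187, adjusted p = 0.813, edgeR) with all samples and -0.10 (adjusted p = 0.289) without that library, so its sign rested on 1 sample.

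VEGFC (chr4:176683538-176792727, minus strand) encodes the lymphangiogenic VEGF. It had 25.6, 25.2 and 28.5 CPM in AdCtrl and 30.9, 22.7 and 23.0 CPM in AdSIRT4, the same arrangement as in VEGFB. The log2 difference was -0.050 (SE 0.145) with an adjusted p of 0.911 by edgeR. Without AdSIRT4 replicate 1 it was -0.21 with an adjusted p of 0.104, and the other AdSIRT4 samples lay below all AdCtrl samples.

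FGFR1 (chr8:38400215-38468834, minus strand), the receptor tyrosine kinase for FGF2, had 148.1, 139.7 and 141.3 CPM in AdCtrl and 101.4, 135.9 and 132.6 CPM in AdSIRT4. All AdSIRT4 samples lay below all AdCtrl samples, with replicate 1 well below the others. Its log2 difference of -0.21 (SE 0.131) had an unadjusted p of 0.147, edgeR's adjusted p was 0.719, and the exact permutation test gave p = 0.1. With that sample left out it was -0.096 with an adjusted p of 0.286. With the length trend of each library removed, the log2 difference of FGFR1 was -0.15 (unadjusted p = 0.0648, edgeR). The part of that trend in the difference was not tested further.

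Counted together, 2 of the 8 tested growth factor genes had an unadjusted p under 0.05 and were higher in AdSIRT4, where 4.43% of all tested genes did, and 0 were lower, against 3.5% of all tested genes. With the replicate block the count was 1. The groups were separate with AdSIRT4 higher in 2 of 8, against 9.66% of all tested genes, and with AdSIRT4 lower in 1 of 8, against 9.77%. The log2 differences lay above 0 in 4 genes and below 0 in 4, with a median of 0.012, beside 0.021 over all tested genes. Leaving out AdSIRT4 replicate 1 turned the median to -0.10, beside -0.0028 over all genes, and gave 2 higher and 1 lower at an unadjusted p under 0.05. In that fit 4446 of all 18287 tested genes had an unadjusted p under 0.05.

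**Figure D4:**
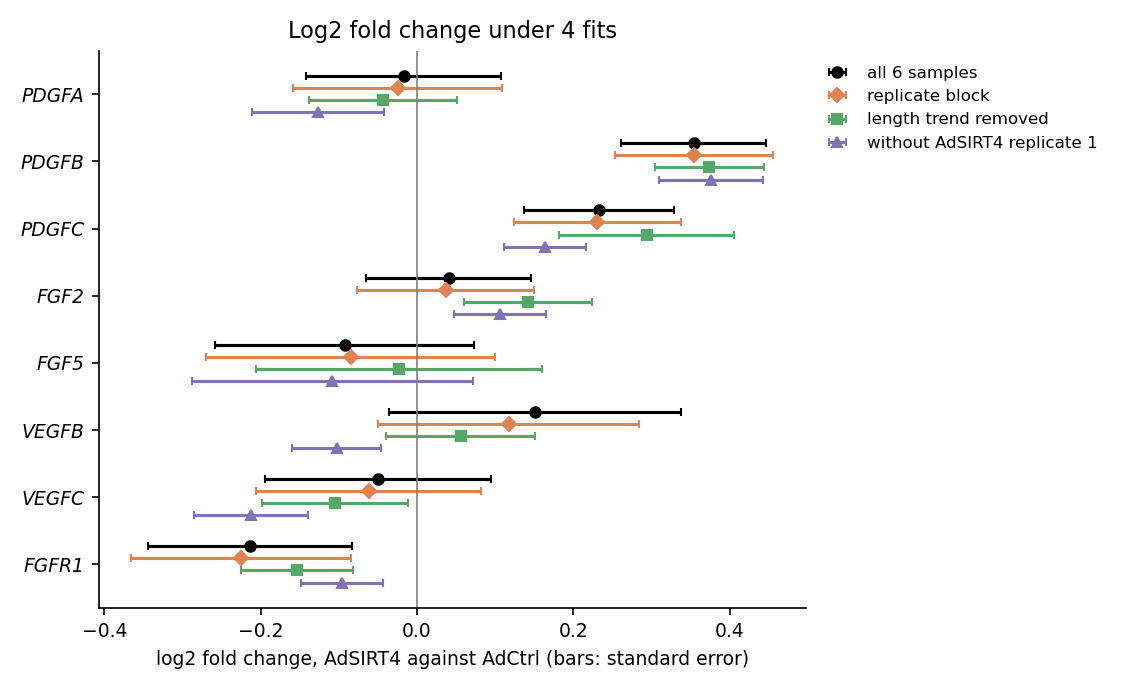
Log2 difference (AdSIRT4 minus AdCtrl) of the 8 tested growth factor genes in 4 edgeR fits, with bars of 1 SE: all 6 samples, with the replicate block, with the length trend removed, and without AdSIRT4 replicate 1. Between the first and the last fit PDGFB stays at 0.35 and 0.38, while VEGFB moves from 0.15 to -0.10 and FGFR1 from -0.21 to -0.096.

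The receptors of these ligands were unevenly present. FGFR2, with 25.0 FPKM in AdCtrl and 21.8 in AdSIRT4, was near FGFR1, and FGFR3 (17.4 and 15.6) and FGFR4 (15.5 and 14.0) were lower. The neuropilins, coreceptors of VEGFs, had 19.8 and 18.0 FPKM for NRP1 and 5.90 and 4.35 FPKM for NRP2. FLT4, the receptor of VEGF-C, had 1.48 and 1.24 FPKM. PDGFRB had 51, 34 and 83 counts in AdCtrl and 26, 72 and 77 in AdSIRT4, a mean of 0.171 and 0.121 FPKM. PDGFRA had 0 counts in 5 samples and 4 in AdSIRT4 replicate 2, and in the same sample FLT1 had 6 counts and KDR 2, with 0 elsewhere. The RNA of PDGFRA, FLT1 and KDR was therefore at or near 0 in the cells that held PDGFB, PDGFC and VEGFB RNA, and that of PDGFRB was low but present in every sample. Among the 12 receptor genes other than FGFR1, 9 were tested, and 0 had an unadjusted p under 0.05, against 7.93% of all tested genes. Of the 9, 8 had a log2 difference below 0, as did 8261 of all 17720 tested genes. The median of the 9 was -0.12, and it was -0.17 without AdSIRT4 replicate 1 and -0.13 with the length trend removed. Without AdSIRT4 replicate 1, 3 of the 9 had an unadjusted p under 0.05, where 4446 of 18287 genes did. FGFR4 alone among the 9 was then lower with an adjusted p of 0.0292 by edgeR (log2 difference -0.30). That fit called 3.34% of all genes lower.

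The other genes of the pathways were taken from 5 lists that rest on textbook roles: other ligands, other receptors, ligand processing and cofactors, signal transduction, and feedback inhibitors with early targets. None of the 98 tested genes of these lists (122 genes) had an adjusted p under 0.05 by edgeR. At an unadjusted p under 0.05 there were 8 higher and 2 lower, 10 in all (10.2%), against 7.93% of all tested genes (4.43% higher and 3.5% lower). Without AdSIRT4 replicate 1, 9 of 99 had an adjusted p under 0.05, of which 6 were higher and 3 lower, where 3.37% of all genes were higher and 3.34% lower. By DESeq2 2 did, each higher in AdSIRT4, where 0.788% of 15995 genes were called higher.

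The list of feedback inhibitors and early targets held 6 of these 8 higher genes, out of 22 tested, and 0 lower, against 4.43% and 3.5% of all tested genes. The log2 differences of the list lay above 0 in 11 genes and below 0 in 11, with a median of 0.017. The median was 0.094 without AdSIRT4 replicate 1. Among those below 0 were SPRED3 (-0.27), ETV5 (-0.21) and ETV1 (-0.20, without overlap), each with an unadjusted p above 0.05 by edgeR. DUSP5, a nuclear phosphatase of ERK, had 38.0 ± 2.81 CPM in AdCtrl and 63.0 ± 3.89 in AdSIRT4 (SD, n = 3), a log2 difference of 0.73 (adjusted p = 0.239, edgeR). Its adjusted p was 1.39e-07 by DESeq2, 0.000515 by edgeR without AdSIRT4 replicate 1 and 0.0319 with the length trend of each library removed, but 0.13 once the replicate block was added to that removal and 0.639 with the block alone. CCND1, which encodes cyclin D1, differed by 0.63 on the log2 scale, FOSL1, an AP-1 subunit, by 0.54, DUSP6, a cytoplasmic ERK phosphatase, by 0.43, and EGR1, an early response factor, by 0.34, each higher in AdSIRT4 with an adjusted p above 0.05. Without AdSIRT4 replicate 1, 4 genes of this list had an adjusted p under 0.05, all higher, in a fit that called 3.37% of all genes higher and 3.34% lower.

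Of 23 tested genes for ligand processing and cofactors, 2 were higher at an unadjusted p under 0.05 and 0 lower, against 4.43% and 3.5% of all tested genes, with a median of -0.021. With the replicate block 1 was higher, SDC4, and 1 lower, CCBE1, named after its values were seen. SDC4, a heparan sulphate proteoglycan of the cell surface that binds FGFs, had 413.9 ± 27.0 CPM in AdCtrl and 566.6 ± 14.7 in AdSIRT4 (SD, n = 3). Its log2 difference was 0.45, with an adjusted p of 0.494 by edgeR and of 0.00361 without AdSIRT4 replicate 1. KLB, a coreceptor for hormone-like FGFs, was low, at 0.463 and 0.828 CPM, with a log2 difference of 0.83 (adjusted p = 0.607, edgeR).

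All 39 genes of signal transduction were tested, and 2 were lower at an unadjusted p under 0.05, against 3.5% of all tested genes, and 0 with the replicate block. PIK3R2, a regulatory subunit of PI3K, had a log2 difference of -0.30 with an adjusted p of 0.628 by edgeR. Of the 39, 29 had a log2 difference below 0, where 8261 of all 17720 tested genes did, and the list median was -0.090. The median was -0.0074 without AdSIRT4 replicate 1 and -0.016 with the length trend removed. Of 22 other ligand genes of the families 5 were tested, and 0 had an unadjusted p under 0.05, against 7.93% of all tested genes. Their median was 0.056, which turned to -0.030 (6 tested) without AdSIRT4 replicate 1.

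**Figure D5:**
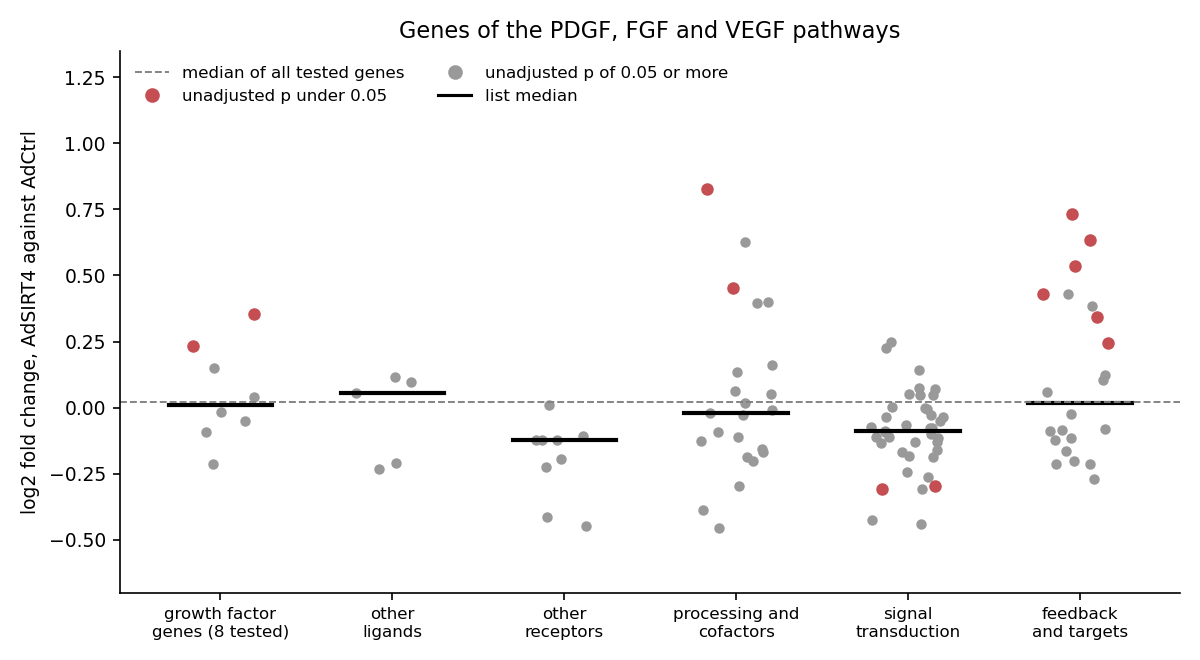
Log2 difference (AdSIRT4 minus AdCtrl) of each tested gene in the growth factor set and in the 5 pathway lists, with points for genes, red where the unadjusted p is under 0.05, bars for list medians and a dashed line at the median of all tested genes (0.021). With all 6 samples the medians run from -0.12 for other receptors to 0.056 for other ligands (-0.030 without AdSIRT4 replicate 1), and the feedback and target genes reach 0.73 for DUSP5.

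The genes whose pattern over the 6 samples was most like that of PDGFB were sought among the other 17719 tested genes by the root mean square difference in log2 CPM, each gene centred on its own mean. The nearest were DSP-AS1 (0.0288), an antisense transcript at the desmoplakin locus that had 48 to 129 counts per sample, LINC00475 (0.0341), a noncoding gene with 12 to 33 counts, and POLG2 (0.0357), the accessory subunit of the mitochondrial DNA polymerase, with 442 to 1126 counts. POLG2 had 10.7 ± 0.504 CPM in AdCtrl and 13.1 ± 0.714 CPM in AdSIRT4 (SD, n = 3), without overlap. They were picked for this likeness, so their own differences carry no test.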

How the data were processed

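The growth factor genes, the pathway lists and the marker lists were chosen with earlier results of these data known. Poly(A) RNA of 6 samples was sequenced on DNA nanoballs. Per the submitters' processing notes, fastp 0.21.0, HISAT2 2.1.0, StringTie 2.1.5 and DESeq2 1.30.1 were used with build hg38. The authors deposited raw counts per gene and, for the same genes, values read here as FPKM. Their unit is not named in the sources used here and was inferred from the gene lengths that both deposited tables imply. Of 18868 genes with such a length, 13397 had the same length in all samples within 5%, after each sample was scaled by its own factor. Because of that scaling, the agreement cannot separate FPKM from other length-scaled units that differ from it by a factor per sample. These implied lengths are the gene lengths given, and they need not match the annotation. For VEGFB the implied 2.04 kb exceeds the 1545 annotated exon bases, and for PDGFB 4.24 kb exceeds 3761. The implied lengths of FGF2, VEGFC and FGF5 also exceed their exon bases, while those of PDGFA, PDGFC and FGFR1 are shorter.

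Counts were filtered (filterByExpr, minimum count 10), scaled by TMM and tested with edgeR 4.0.16 (robust quasi-likelihood, R 4.3.3), with Benjamini-Hochberg adjustment over 17720 genes. SE is the absolute log2 difference over the root of F. FPKM served for levels between genes, for marker sums and ratios, and for limma 3.58.1 on log2(FPKM + 1). DESeq2 1.42.0 was an alternative, as were RLE scaling, other filters, other pseudocounts, removal of the length trend (lowess, span 0.3), a replicate block and leaving out each sample. Total counts of 41537353 to 85684748 set the precision, and intervals or limits cover counting error only. No replicates were copies, since the chi-square per gene between them was 10.1 to 233.

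Same-numbered samples deviated together from their group means, with correlations across genes of 0.178, 0.159 and 0.176, and of -0.188 to 0.030 for other pairs. The numbers come from the sample titles, and only the fits with a replicate block used them to pair the samples. The main fit and the exact permutation tests treated the samples as unpaired. The tests were first run on simulated counts.

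Named were the 10 growth factor genes, SIRT4, the ligands' receptors, per list at most 5 genes with an unadjusted p under 0.05 by smallest p, and the 3 genes nearest in pattern to the growth factor gene of smallest p. Other genes were named after their values were seen. One gene that this rule names is not reported here. Lengths of shared sequence and positions were read from GENCODE release 29. Promoter and protein sequences were not used here. Tables and figures used Python 3.11.15, pandas 2.3.3, scipy 1.17.1 and matplotlib 3.10.9.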

Additional observations from a re-analysis of the deposited data

How the results depend on the processing

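Each group held 3 samples, and AdSIRT4 replicate 1 was set apart from the other AdSIRT4 replicates by gene length. Of 127 recomputed log2 differences of the 8 tested growth factor genes, 114 kept their direction and their side of an adjusted p of 0.05. PDGFB passed in DESeq2 (0.36) and without AdSIRT4 replicate 1. Without single libraries the log2 differences reached -0.13 to 0.085 in PDGFA, -0.031 to 0.11 in FGF2, -0.10 to 0.28 in VEGFB and -0.21 to 0.033 in VEGFC. The sign turned in PDGFA without AdCtrl replicate 3 (0.0088) or AdSIRT4 replicate 2 (0.085), in VEGFB without AdSIRT4 replicate 1 (-0.10), in VEGFC without AdCtrl replicate 3 (0.0068), AdSIRT4 replicate 2 (0.033) or AdSIRT4 replicate 3 (0.019), and in FGF2 by limma on log2(FPKM + 1), with or without a minimum mean of 1 FPKM (-0.0012), on log2(FPKM + 0.1) (-0.0020) and without AdCtrl replicate 2 (-0.00019) or AdSIRT4 replicate 3 (-0.031). The cause was not tested. Growth factor genes with an unadjusted p under 0.05 numbered 1 with all genes of at least 1 count and in each limma fit, and 1 to 3 when 1 library was left out. Those with an adjusted p under 0.05 numbered 0, or 1 in DESeq2, and 0 to 1 when 1 library was left out. Among the pathway lists, 20 had an unadjusted p under 0.05 with the length trend removed, 19 with the replicate block as well, and 4 to 26 when 1 library was left out, the highest without AdSIRT4 replicate 1. Over all 17720 tested genes there were 2462 with the length trend removed and 2461 with the block as well. When 1 library was left out there were 668 to 4446 over all genes, the highest again without AdSIRT4 replicate 1 (of 18287). With an adjusted p under 0.05 the pathway lists held 2 in DESeq2, 1 with the length trend removed, and 0 to 9 when 1 library was left out.

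The 2 genes called over all genes became 212 in DESeq2, 5 with all genes of at least 1 count, 4 with at least 10 counts in every sample, 0 by limma on log2(FPKM + 1), where 1643 had an unadjusted p under 0.05, 1 with 0.1 added, 5 with a mean of at least 1 FPKM, 12 with the length trend removed and 6 with the block as well. Leaving out 1 library gave 0 to 1227, the highest without AdSIRT4 replicate 1 and 0 without any AdCtrl library, where SIRT4 had adjusted p of 0.0559 to 0.203 by edgeR. With the replicate block alone 1 gene was called over all genes, 1 growth factor gene had an unadjusted p under 0.05, the unadjusted calls given for the lists changed, and no other call at an adjusted p under 0.05 did among the growth factor genes and the lists. The log2 difference of SIRT4 was 4.88 by limma on log2(FPKM + 1), with an adjusted p of 0.0847.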

Other observations

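Genes for the maturation of VEGF-C were read from the list of ligand processing, and those named here were chosen after their values were seen. CCBE1, which assembles the complex that cleaves VEGF-C, had 60.2, 62.8 and 56.7 CPM in AdCtrl and 28.7, 50.9 and 51.2 CPM in AdSIRT4. All AdSIRT4 samples lay below all AdCtrl samples, with replicate 1 lowest. Its log2 difference was -0.46 (adjusted p = 0.678, edgeR) with all samples and -0.23 (adjusted p = 0.0348) without AdSIRT4 replicate 1, a fit that called 3.34% of genes lower. ADAMTS3, the protease of that complex, had 87.8, 87.9 and 89.5 CPM in AdCtrl and 73.2, 92.2 and 95.8 CPM in AdSIRT4, with overlap and a log2 difference of -0.021, or 0.085 without AdSIRT4 replicate 1. PCSK7, a proprotein convertase, had 44.3, 44.5 and 43.1 CPM in AdCtrl and 25.1, 41.0 and 41.1 CPM in AdSIRT4, without overlap (log2 difference -0.30, adjusted p = 0.731, edgeR). Its log2 difference was -0.10 (adjusted p = 0.283) without AdSIRT4 replicate 1. Over all tested genes, the groups were separate with AdSIRT4 lower in 9.77% and higher in 9.66%. No other protease of the same list was lower in AdSIRT4 without overlap. CTSD was higher in AdSIRT4 without overlap (log2 difference 0.16, adjusted p = 0.744, edgeR), and 0.094 without AdSIRT4 replicate 1. FURIN also had a log2 difference below 0 (-0.20), but overlapped between the groups, and differed by -0.034 without that library. The part of the length trend of AdSIRT4 replicate 1 in the differences was not tested beyond its removal. That removal gave log2 differences of -0.39 for CCBE1, -0.27 for PCSK7, -0.17 for FURIN and 0.11 for CTSD.

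Plasminogen activators cleave latent PDGF-C and PDGF-D outside the cell. PLAU, the urokinase gene, had 690.3, 628.9 and 705.9 CPM in AdCtrl and 711.6, 597.7 and 704.1 CPM in AdSIRT4, and PLAT, the tissue type gene, had 13.2, 11.3 and 12.9 CPM in AdCtrl and 12.5, 12.7 and 13.8 CPM in AdSIRT4. Both overlapped between the groups, with log2 differences of -0.0083 and 0.062 (adjusted p of 0.982 and 0.860, edgeR), and of -0.058 and 0.082 without AdSIRT4 replicate 1.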
